A study of Mus musculus with 8 samples.

Results

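The vacuolar proton pump (V-ATPase) was followed in mouse myeloid cells that Hoxa9 and Meis1 had transformed, with the Meis1 transgene in place or deleted. The set holds 10 subunit genes (Atp6v0a1, Atp6v0b, Atp6v0c, Atp6v0d1, Atp6v0d2, Atp6v1a, Atp6v1b2, Atp6v1c1, Atp6v1d and Atp6v1h). Every probe set that GEO's platform annotation gives to exactly one of them was taken as a member. This gave 17 probe sets for 8 of the 10 genes, out of 45141 probe sets on the array. Atp6v0c and Atp6v1c1 had no probe set of that kind and were not analysed here.

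All cells derived from bone marrow of C57BL/6 mice with a Cre-ERT2 recombinase knocked in at Rosa26, a form of Cre that tamoxifen switches on. They had been transduced with retroviruses for Hoxa9 and for a floxed Meis1, and interleukin-3 (5 ng/ml) and 10% serum were present in their Iscove's medium. The group called Meis1 deleted (4 arrays) had received 2 µM 4-hydroxytamoxifen, while the group called Hoxa9 and Meis1 (4 arrays) had not, so both groups carried Cre-ERT2 and Hoxa9, and only 1 of them had met the drug. The labels do not state whether arrays of 1 group came from separate cultures, so p-values measure only how far these arrays differ, a spread that may be technical.

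The V-ATPase pumps protons into endosomes, lysosomes and secretory granules and so makes them acidic. Its cytosolic V1 sector hydrolyses ATP, its membrane-bound V0 sector carries the protons, and a rotating stalk couples the sectors. Phagocytes such as macrophages depend on it to acidify the compartments in which ingested material is digested. Osteoclasts, relatives of macrophages, place it in the plasma membrane to dissolve bone mineral.

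Values are log2 expression levels, so that a difference of 1 is a 2-fold difference. Absolute levels are not comparable between probe sets, so where a pair of genes is compared, it is the change in their difference on the same array. A gene's difference is that of its probe set with the highest mean, Meis1 deleted minus Hoxa9 and Meis1, with limma's standard error (SE) and with p adjusted by Benjamini-Hochberg over 11836 genes. A gene passed when its adjusted p was under 0.05. Errors of levels are standard deviations (SD) over 4 arrays.

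The deletion itself could not be followed. The Meis1 probe set that stood for the gene had a level of 5.02 ± 0.07 (SD, n = 4) after deletion and of 5.00 ± 0.05 in the control group. A lower Meis1 probe set, 1450992_PM_a_at, read 3.78 ± 0.07 after deletion and 3.64 ± 0.05 in the control group, so neither fell. Whether the probes of either match the transgene was not analysed here. The arrays differed in a pair of technical ways. A spiked hybridisation control, bioB, was high (6.43 to 6.61) on 1 deleted and 2 control arrays and low (4.04 to 4.28) on 3 deleted and 2 control arrays. Meis1 deleted replicate 1 stood apart in RNA quality: its 3' Gapdh control probe set read 0.72 above the 5' one, against -0.07 to 0.04 on the other 7 arrays, and the corresponding beta-actin difference was 0.67 against 0.32 to 0.38. The results below are therefore also given without that array and with the bioB class as a block where these change a call or a size.

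Pump subunit genes were higher after Meis1 deletion. Of the 8 measured genes 7 rose and 0 fell, against 18.1% of all genes that rose and 17.5% that fell, by limma with the Benjamini-Hochberg adjustment (0 were lower at an unadjusted p under 0.05 either). In these 7 genes every deleted array lay above every control array, which held for 19.7% of all genes, and in 0 of the 8 every deleted array lay below, which held for 18.9%. The median difference was 0.46, against -0.0044 over all genes tested. Without Meis1 deleted replicate 1 the count was 7 with a median of 0.43, and with the bioB class as a block all 8 rose, with a median of 0.46. The rise was very uneven: Atp6v0d2 changed by 4.60, and the other 7 genes lay between 0.17 and 0.75.

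**Figure D1:**
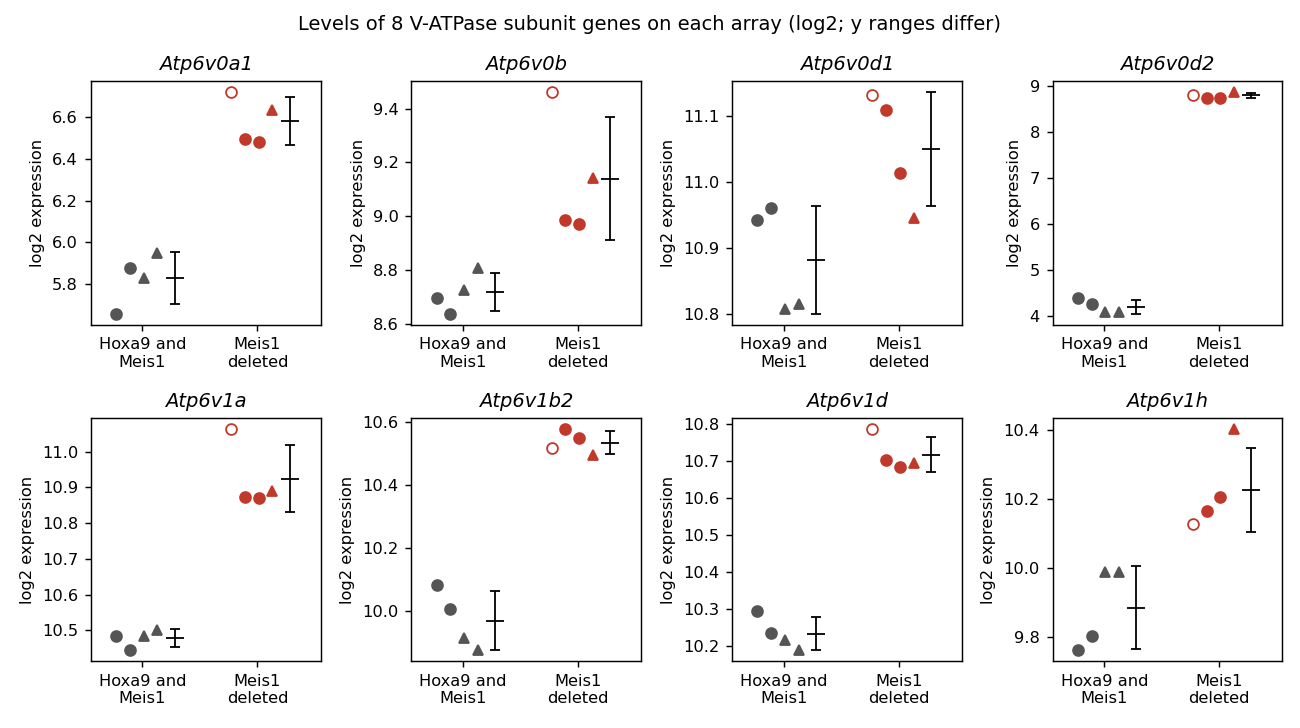
Log2 expression (y axis, with a range of its own in each panel) of the 8 measured V-ATPase subunit genes on the 4 Hoxa9 and Meis1 arrays (grey) and the 4 Meis1 deleted arrays (red), 1 probe set per gene. Triangles are arrays with a high bioB control, circles those with a low one, the open circle is Meis1 deleted replicate 1, and bars are the mean ± SD; the groups are apart in every panel except that of Atp6v0d1.

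Markers of mature myeloid cells moved with the pump genes. All 12 macrophage markers rose, against 18.1% of all genes, with a median of 3.75. Their summed linear level was 14150 to 14470 on the deleted arrays and 2786 to 2978 on the control arrays. Among them C1qa passed the filter on low values through the deleted group alone, as its control mean of 3.855 lay under the threshold of 4.29. The defining macrophage genes Adgre1 and Csf1r were measurable before the deletion, at 9.88 ± 0.08 and 7.36 ± 0.06, and Mrc1 was at the floor there (4.54 ± 0.11). Of 7 neutrophil markers 6 rose, against 18.1% of all genes (summed level 24230 to 24750 on the deleted arrays, 14160 to 14850 on the control arrays). In bulk RNA more cells of a type cannot be told apart from more RNA per cell, and the part of these markers in the pump result was not tested.

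The promoter sequences of the set are shown because most of its measured members rose, and because they differ in the short motifs they hold. RefSeq promoter windows (GRCm38.p6, from 250 bases before to 50 bases after the gene start) were found for 5 of the 8 measured members: Atp6v0a1, Atp6v0b, Atp6v0d1, Atp6v1a and Atp6v1d. The motif CACGTG, the palindromic E-box that lies at the core of the sites of the lysosomal regulators Tfeb, Tfe3 and Mitf, was searched on both strands together with TCATGTG, a related Mitf motif, TGACAG, the motif of Meis-type homeodomains, and TGANTCA, the motif of AP-1. CACGTG stood in 3 of those 5 genes and in 7.15% of all 32851 windows. It is in capitals in the stretches of Atp6v0b, Atp6v0d1 and Atp6v1a, each written 5′ to 3′ on the strand of the gene.
Atp6v0b, chr4:117887330-117887429, minus strand: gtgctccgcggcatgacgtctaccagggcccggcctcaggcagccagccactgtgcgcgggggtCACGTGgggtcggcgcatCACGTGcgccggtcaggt
Atp6v0d1, chr8:105566062-105566164, minus strand: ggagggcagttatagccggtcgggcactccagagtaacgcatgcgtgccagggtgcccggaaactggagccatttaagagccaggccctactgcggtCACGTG
Atp6v1a, chr16:44139320-44139419, minus strand: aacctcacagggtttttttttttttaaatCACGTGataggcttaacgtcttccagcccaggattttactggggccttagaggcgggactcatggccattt
The Atp6v0b window holds the motif 2 times, starting 36 and 18 bases before the gene start. Of all windows 0.594% hold 2 or more matches, a cut-off taken from this window. In Atp6v0d1 the motif starts 3 bases before the start and runs 3 bases past it, and in Atp6v1a the motif starts 131 bases before the start.

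The window of Atp6v0a1 was different and is shown for its repeats. It has no CACGTG but 4 matches to TGACAG, all on the reverse strand and so read as CTGTCA, the first base of each 226, 217, 208 and 195 bases before the start. The matches at 226, 217 and 208 lie in a short tandem repeat. Of all windows 0.0426% hold 4 or more TGACAG matches, a cut-off taken from this window, and 19.2% hold at least 1. A single TGANTCA match starts 111 bases before the start, a motif in 7.81% of all windows. Both motifs are in capitals.
Atp6v0a1, chr11:101010158-101010307, plus strand: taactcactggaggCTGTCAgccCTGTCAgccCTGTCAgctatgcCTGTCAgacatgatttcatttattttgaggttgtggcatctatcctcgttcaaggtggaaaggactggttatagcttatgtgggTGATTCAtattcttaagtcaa
Atp6v1d held none of the 4 motifs in its window. TGACAG also stood in the windows of Atp6v0b and Atp6v0d1, and TCATGTG, present in 3.77% of all windows, was found in 1 of the 3 windows of Atp6v0c, which was not measured. These matches describe the letters alone, and no binding was measured. Atp6v0b (0.42) and Atp6v1a (0.45), with CACGTG, rose, and so did Atp6v0a1 (0.75) and Atp6v1d (0.48), without it. Atp6v0d1 (0.17), with CACGTG, did not pass, and a link between motif and difference was not tested.

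Atp6v0d2 encodes the d2 isoform of the V0 subunit that joins the rotating stalk to the membrane ring, a form known from osteoclasts, macrophages and kidney. Its probe set 1434798_PM_at read 4.39, 4.26, 4.08 and 4.08 on the Hoxa9 and Meis1 arrays 1 to 4 and 8.81, 8.75, 8.75 and 8.87 on the Meis1 deleted arrays. All control arrays were close to the floor of the table, under the lowest median of an array (4.69), and the deleted arrays were tight and far above them. The difference was 4.60 ± 0.08 (SE) on the log2 scale, with a limma adjusted p of 2.53e-10. It was the single member that passed with a rise of at least 2-fold, which 2.51% of all genes did.

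A further Atp6v0d2 probe set, 1444176_PM_at, gave the same picture. It read 3.98, 3.97, 4.22 and 4.21 in cells with Hoxa9 and Meis1 and 8.59, 9.07, 8.91 and 8.98 in Meis1 deleted cells. Its difference of 4.79 ± 0.10 (limma adjusted p = 8.42e-10 over all 45037 probe sets that are no controls) is from a fit of every probe set with no filter on low values. Both probe sets passed the filter on low values through the deleted group alone, since their control means (4.20 and 4.09) lay under its threshold of 4.29. Because the control level is at the floor no fold is given and the size is uncertain: with an offset of 64 added on the linear scale the difference was 2.63 (adjusted p = 1.76e-10).

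Atp6v0d1 encodes d1, the form of the same subunit that is made in nearly all cells. It read 10.94, 10.96, 10.81 and 10.82 on the control arrays and 11.13, 11.11, 11.01 and 10.95 on the deleted arrays. The groups overlapped, because control replicate 2 was above deleted replicate 4. The difference of 0.17 ± 0.06 did not pass (limma adjusted p = 0.0583). It lay at the threshold: it passed under 10 of 23 alternatives, with adjusted p from 0.0272 to 0.224 over all of them, among them the bioB class as a block (0.13, adjusted p = 0.0419). Within the low class alone it was 0.13 (adjusted p = 0.224), and the high class, with 1 deleted array, gave 0.13 as well.

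The d isoforms were also compared within arrays. The log2 level of Atp6v0d2 minus that of Atp6v0d1 on the same array shifted by 4.43 between the groups. It was -2.36 to -2.08 on the deleted arrays and -6.74 to -6.56 on the control arrays. The signed value was thus higher on all 4 deleted arrays than on any control array. A two-sided exact permutation test over the 70 assignments of arrays gave p = 0.0286, the smallest that 4 against 4 arrays allow. After adjustment over the 4 isoform comparisons made it was 0.0571, so this shift did not pass the correction. At that smallest p no comparison could pass on its own, so the outcome does not weigh the size of the shift. The test also repeats the Atp6v0d2 result, since a difference of 4.60 there, next to 0.17 for Atp6v0d1, fixed its p in advance. It is no separate evidence on the isoforms.

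Atp6v0a1 encodes a1, a form of the large V0 subunit past which the protons move. It read 5.66, 5.88, 5.83 and 5.95 on the control arrays and 6.72, 6.49, 6.48 and 6.63 on the deleted arrays (probe set 1417632_PM_at). The groups were apart by more than the spread within either. The difference was 0.75 ± 0.08, or 1.68-fold (limma adjusted p = 7.21e-05), the largest rise in the set after that of Atp6v0d2. The other 3 probe sets of the gene read lower and showed no such rise: their differences were -0.04 ± 0.06, 0.07 ± 0.05 and 0.13 ± 0.06 (limma adjusted p of 0.717, 0.430 and 0.163 over all probe sets), at means between 3.65 and 4.77. With the mean of the gene's probe sets above the filter the difference was 0.41 (adjusted p = 2.74e-05), and with an offset of 64 it was 0.40 (adjusted p = 1.05e-04).

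Atp6v0b encodes a proteolipid of the V0 ring that turns as protons pass. Its probe set with the highest mean, 1437013_PM_x_at, read 8.70, 8.64, 8.73 and 8.81 on the control arrays and 9.46, 8.99, 8.97 and 9.14 on the deleted arrays. All deleted arrays were higher, and replicate 1 was 0.43 above the mean of the other 3. The difference was 0.42 ± 0.10 (limma adjusted p = 0.0113) and 0.32 without that array (adjusted p = 0.00277). Within the low bioB class it did not pass (0.47, adjusted p = 0.114), and the high class, with 1 deleted array, gave a value of 0.37.

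The other Atp6v0b probe sets did not all behave alike. 1416769_PM_s_at rose by 0.32 ± 0.09 (limma adjusted p = 0.0354 over all probe sets), and here deleted replicate 1 read lower (7.15) than the other 3 deleted arrays (7.33 to 7.58) and fell within the control range of 6.96 to 7.21. 1425448_PM_x_at differed by 0.08 ± 0.05 and did not pass (adjusted p = 0.371). The suffixes s and x mark probe sets whose probes can also match other transcripts, so the values of this gene are less certain than the others. The mean of the 3 probe sets gave 0.27 (adjusted p = 5.51e-04).

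The V1 genes of the set rose by similar amounts, between 0.34 and 0.56, and all 4 that were measured passed. Atp6v1a encodes the catalytic A subunit, which hydrolyses ATP. Its probe set 1422508_PM_at read 10.49, 10.44, 10.48 and 10.50 on the control arrays and 11.06, 10.87, 10.87 and 10.89 on the deleted arrays, a difference of 0.45 ± 0.05 or 1.36-fold (limma adjusted p = 1.93e-04). The controls were within 0.06 of each other and every deleted array was well above them. 1450634_PM_at gave nearly the same difference, 0.44 ± 0.12 (adjusted p = 0.0349 over all probe sets), from a different pattern. There deleted replicate 1 read 10.22, inside the control range of 10.17 to 10.32, while the other deleted arrays read 10.76, 10.83 and 10.84. Without that array the differences at the pair of probe sets were 0.40 and 0.58.

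Atp6v1b2 encodes the B2 subunit, which alternates with A in the ATP-binding ring and is the form of most tissues. It read 10.08, 10.01, 9.92 and 9.88 on the control arrays and 10.52, 10.58, 10.55 and 10.49 on the deleted arrays. The groups were apart, and the deleted arrays were the tighter ones. The difference of 0.56 ± 0.06, or 1.48-fold (limma adjusted p = 4.72e-05), was the largest among the V1 genes.

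Atp6v1d encodes the D subunit, the axle of the central stalk. Its probe set 1416951_PM_a_at read 10.29, 10.23, 10.21 and 10.19 on the control arrays and 10.79, 10.70, 10.68 and 10.69 on the deleted arrays, a difference of 0.48 ± 0.05 (limma adjusted p = 3.88e-05). The other probe sets of the gene rose as well, by 0.40 ± 0.04 and 0.46 ± 0.07 (adjusted p of 1.26e-04 and 6.52e-04 over all probe sets), and the groups were apart at all 3. It was thus the member whose probe sets were most alike where there were more than 2 of them.

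Atp6v1h encodes the H subunit, which regulates the pump and keeps the detached V1 sector from using ATP. It read 9.76, 9.80, 9.99 and 9.99 on the control arrays and 10.13, 10.17, 10.21 and 10.40 on the deleted arrays. In each group the arrays with a high bioB control were the higher ones, and the groups were still apart. The difference was 0.34 ± 0.08, or 1.27-fold (limma adjusted p = 0.00864). With the bioB class as a block it was 0.39 ± 0.04 (adjusted p = 1.61e-04), within the low class it was 0.38 (adjusted p = 0.0110), and the high class, with 1 deleted array, gave 0.41.

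Over all 17 probe sets of the 8 genes 12 rose and 0 fell, against 8.69% of all probe sets that rose and 10.1% that fell, by limma adjusted over all of them with no filter. The 5 that did not pass were 3 of Atp6v0a1, 1 of Atp6v0b and the only one of Atp6v0d1. Of the 17 probe sets 15 were above the filter on low values, and the 2 below it were both of Atp6v0a1.

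**Figure D2:**
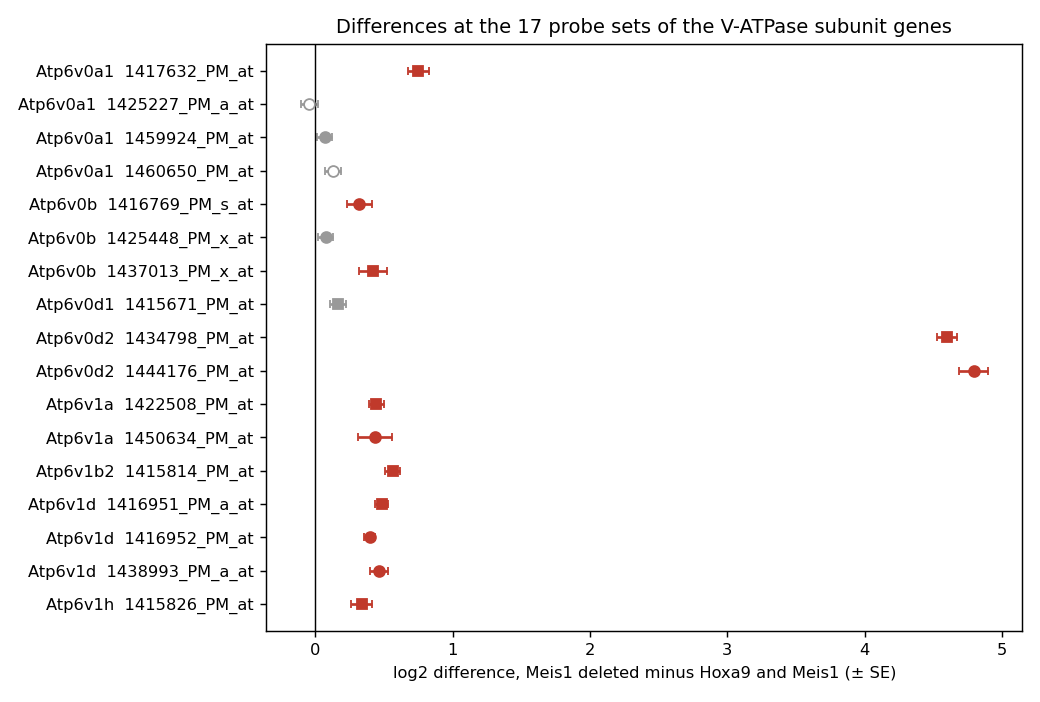
Log2 difference, Meis1 deleted minus Hoxa9 and Meis1 (x axis, ± SE), at each of the 17 probe sets (y axis); red passed an adjusted p of 0.05 over all probe sets, grey did not, open symbols were under the filter on low values and squares are the probe sets that stood for their gene. Both Atp6v0d2 probe sets lie beyond 4.5, and the rises of Atp6v1a and Atp6v1d are alike across their probe sets while those of Atp6v0a1 and Atp6v0b are not.

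The other parts of the pump were read from a list of their own. Of 16 further subunits and accessory proteins 13 had a named probe set and 9 were above the filter. Of these 9, 4 rose and 0 fell (0 were lower at an unadjusted p under 0.05 by limma). Over all genes 18.1% rose and 17.5% fell. The median was 0.16, and the count of rises was 5 without Meis1 deleted replicate 1 and 5 with the bioB class as a block. Tcirg1, the a3 form of the large V0 subunit that macrophages and osteoclasts use in lysosomes, read 8.68, 8.53, 8.42 and 8.54 on the control arrays and 9.35, 9.21, 9.32 and 9.22 on the deleted arrays. It rose by 0.73 ± 0.06, with the groups well apart (limma adjusted p = 2.33e-05).

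The accessory proteins that help the V0 sector to assemble and reach its target rose as well: Atp6ap1 by 0.43 ± 0.05 and Atp6ap2 by 0.18 ± 0.04 (limma adjusted p = 2.37e-04 and 0.00837). Atp6ap1 was read by an s probe set alone and Atp6ap2 by an x probe set, whose probes can also match other transcripts. The Atp6ap2 probe set without such a suffix, 1423662_PM_at, rose by 0.20 ± 0.06 (limma adjusted p = 0.0329 over all probe sets). Atp6v0e, a small V0 subunit, rose by 0.28 ± 0.05 (limma adjusted p = 0.00126). The V1 genes Atp6v1e1 and Atp6v1f did not pass, with differences of 0.09 ± 0.06 and 0.08 ± 0.05 (limma adjusted p = 0.258 and 0.273). With the bioB class as a block Atp6v1e1 passed (0.13 ± 0.04, limma adjusted p = 0.0328). Atp6v1e2 (0.05 ± 0.08) and Atp6v1g2 (0.03 ± 0.07), known from testis and brain, were low in both groups and did not pass (adjusted p = 0.705 and 0.777).

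Among the a isoforms, Atp6v0a2, the form of the Golgi apparatus, differed by 0.16 ± 0.17 and did not pass (limma adjusted p = 0.501), but without Meis1 deleted replicate 1 it passed, at 0.33 ± 0.10 (adjusted p = 0.0305). Its deleted arrays spread from 6.47 on replicate 1 to 7.27, and its control arrays from 6.54 to 6.94, so over all 8 arrays the difference was smaller than the spread in either group. Atp6v0a2 probe sets 1434791_PM_at (0.16 ± 0.09) and 1424513_PM_at (0.16 ± 0.07) did not pass (limma adjusted p = 0.262 and 0.182 over all probe sets). At 1434791_PM_at deleted replicate 1 was instead the highest deleted array (7.23 against 6.76 to 6.92). The rise without that array was thus seen at the probe set that stood for the gene and was not tested at the others. The Tcirg1 level relative to that of Atp6v0a2 on the same array was higher on every deleted array, by 0.57 on average, with p = 0.0286 by the exact permutation test and 0.0571 after adjustment over the 4 isoform comparisons. Deleted replicate 1, where Atp6v0a2 read low, was the farthest at 2.88. The other deleted arrays, at 2.01 to 2.20, lay just above the control arrays (1.52 to 1.99). By the same exact permutation test, Tcirg1 relative to Atp6v0a1 shifted by -0.02 (p = 0.886, adjusted 0.886), and Atp6v0a1 relative to Atp6v0a2 shifted by 0.59 (p = 0.0857, adjusted 0.114). In the latter, deleted replicate 1 again stood apart, at 0.24 against -0.79 to -0.39 on the other deleted arrays. The shifts without that array were not tested. None of these 4 comparisons passed the correction, which with 4 against 4 arrays none could pass on its own.

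Atp6v1b1, Atp6v0a4 and Atp6v1c2, forms known from kidney and other epithelia, were at the floor. They read between 3.35 and 4.07 on all 8 arrays, under the filter, as did Atp6v0e2 in its means of 4.22 and 4.26. Atp6v1g3 had no named probe set here. Of the list of 6 kidney and epithelial genes that holds these, the carbonic anhydrase gene Car2 alone was above the filter, and it fell by 0.38 (limma adjusted p = 0.00169).

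**Figure D3:**
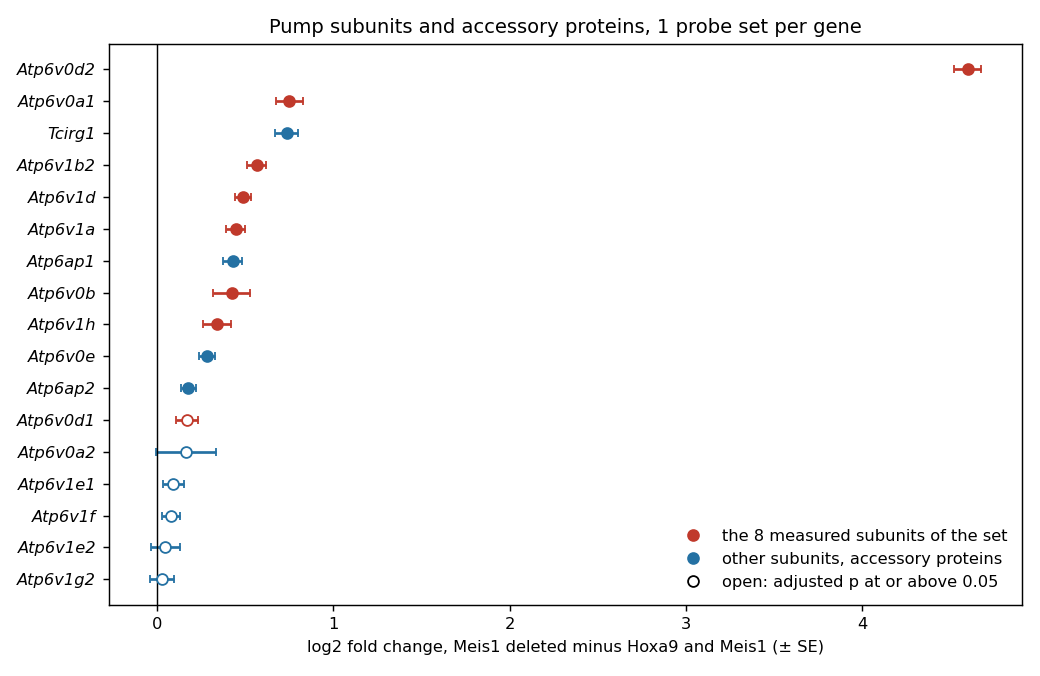
Log2 fold change, Meis1 deleted minus Hoxa9 and Meis1 (x axis, ± SE), of the 17 pump genes that were above the filter (y axis, in order of size); red are the 8 genes of the set, blue the 9 other subunits and accessory proteins, and open circles did not pass. Atp6v0d2 stands alone at 4.60, Atp6v0a1 and Tcirg1 follow near 0.75, and Atp6v0d1 at 0.17 is the highest of the genes that did not pass.

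Of 9 measured genes that assemble or regulate the pump 5 rose and 0 fell (0 at an unadjusted p under 0.05 by limma). Over all genes 18.1% rose and 17.5% fell. The median of the 9 was 0.28. Those that rose included Dmxl1 (0.83 ± 0.09) and Wdr7 (0.47 ± 0.05), which form the complex that puts V1 back on V0, and Tmem199, an assembly factor (0.30 ± 0.05, with limma adjusted p of 1.26e-04, 5.69e-05 and 9.68e-04). Ccdc115, the partner of Tmem199, read -0.01 ± 0.05, and it did not pass, nor did Vma21 (0.16 ± 0.07), Oxr1 (0.05 ± 0.06) or Rogdi (0.01 ± 0.06).

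Genes of endosomal and lysosomal ion channels and exchangers, listed with some partner membrane proteins, split. Of 12 measured 5 rose and 1 fell, against 18.1% of all genes that rose and 17.5% that fell, with a median of 0.13. Without Meis1 deleted replicate 1, 7 rose and 2 fell. Clcn7, the lysosomal chloride-proton exchanger, rose by 1.20 ± 0.14 and its partner Ostm1 by 0.22 ± 0.04, while the endosomal exchanger Clcn5 rose by 0.95 ± 0.05 (limma adjusted p of 1.68e-04, 0.00252 and 1.08e-06). The endolysosomal cation channels did not move alike. Tpcn2 rose by 0.87 ± 0.06 and Mcoln1 by 0.53 ± 0.11, whereas Tpcn1 fell by 0.53 (limma adjusted p of 7.36e-06, 0.00435 and 3.68e-05). Tmem175 differed by 0.04 ± 0.07 and did not pass (limma adjusted p = 0.692).

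The pump also takes part in nutrient sensing, where it recruits the kinase complex mTORC1 to the lysosome together with the Ragulator proteins and the Rag GTPases. Of 14 measured genes of this machinery 8 rose and 1 fell, against 18.1% of all genes that rose and 17.5% that fell. The median was 0.24, and with the bioB class as a block 7 rose. Fnip2, a partner of folliculin, rose by 2.15 ± 0.04, the Rag GTPase gene Rragd by 1.33 ± 0.06 and Rragc by 0.51 ± 0.04 (limma adjusted p of 1.06e-09, 1.81e-07 and 1.95e-05). The Ragulator gene Lamtor4 fell by 0.18 (adjusted p = 0.0396), and without Meis1 deleted replicate 1, or with the bioB class as a block, 0 of the 14 fell.

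Mitf, Tfeb, Tfe3 and Tfec encode the related factors that bind the E-box of lysosomal genes. Mitf read between 8.20 and 8.35 on the control arrays and between 8.92 and 9.12 on the deleted arrays, and it rose by 0.79 ± 0.06 (limma adjusted p = 8.69e-06). Tfeb (0.11 ± 0.05), Tfe3 (0.17 ± 0.08) and Tfec (0.08 ± 0.04) did not pass (adjusted p = 0.124, 0.140 and 0.185), and without Meis1 deleted replicate 1, 2 of the 4 rose, Mitf (0.83) and Tfeb (0.16, adjusted p = 0.0154).

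Lysosomal enzymes and membrane proteins rose at 21 of 22 measured genes with 0 falls (0 at an unadjusted p under 0.05 by limma). Over all genes 18.1% rose and 17.5% fell. The median of the 22 was 0.45. The proteases Lgmn (5.29 ± 0.09) and Ctsb (1.96 ± 0.04) led by p, with Ctsl (1.37 ± 0.04). Of 14 measured genes of the mitochondrial ATP synthase, a rotary machine related to the V-ATPase in structure, 0 rose by limma (1 was higher at an unadjusted p under 0.05) and 2 fell, against 17.5% of all genes that fell, with a median of -0.04. Those that fell were Atp5g2 by 0.22 and Atp5d by 0.13 (limma adjusted p = 0.00362 and 0.0324), and Atp5l differed by 0.09 ± 0.04 (adjusted p = 0.101). Without Meis1 deleted replicate 1, 3 fell, the third being Atp5e (by 0.14, limma adjusted p = 0.0493).

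**Figure D4:**
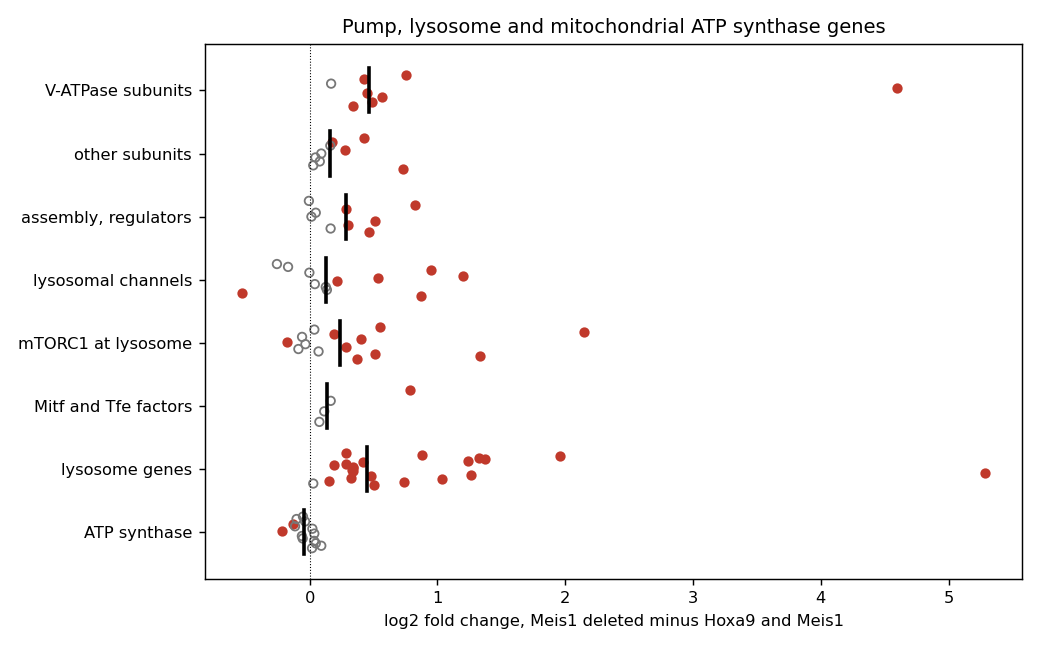
Log2 fold change (x axis) of each measured gene of the V-ATPase set and of 7 further gene lists (y axis); filled red points passed an adjusted p of 0.05, open grey points did not, and black bars are list medians. The medians of the V-ATPase subunits (0.46) and of the lysosome genes (0.45) lie to the right of that of the ATP synthase genes (-0.04).

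Osteoclast markers were read because Atp6v0d2 is used as one. Of 10 listed 7 were above the filter, where 3 rose and 1 fell, against 18.1% of all genes that rose and 17.5% that fell. Their summed level was 418 to 454 on the deleted arrays against 326 to 353 on the control arrays. Ctsk, the bone-degrading cathepsin, rose by 1.31 ± 0.05 from 4.80 ± 0.04, the protease gene Mmp9 by 0.61 ± 0.10 and the transcription factor gene Nfatc1 by 0.34 ± 0.06 (limma adjusted p = 3.48e-08, 0.00112 and 0.00166), while the integrin gene Itgb3 fell by 0.28 (adjusted p = 0.0129). Acp5, the acid phosphatase that defines osteoclasts, differed by 0.06 ± 0.06 (limma adjusted p = 0.435) and Oscar by -0.01 ± 0.05 (adjusted p = 0.903), both low in either group. Of B cell markers 2 of 6 and of T cell markers 3 of 6 were above the filter. None of these passed (limma, 0 at an unadjusted p under 0.05), while 35.5% of all genes passed in either direction. Of 5 mast cell or basophil markers 1 rose (20%, near the 18.1% of all genes) and 2 fell (17.5% of all genes fell). Ms4a2 rose by 0.20 ± 0.07, and the protease gene Mcpt8 fell by 0.74 and Gata2 by 0.19 (limma adjusted p = 0.0435, 0.00144 and 0.0185). Without Meis1 deleted replicate 1 Kit fell as well, by 0.21 (limma adjusted p = 0.00922). Of 3 erythroid markers 1 rose and 0 fell, against 18.1% and 17.5% of all genes. Epor rose by 0.22 ± 0.07 (limma adjusted p = 0.0351), but with the bioB class as a block it did not pass (0.20, adjusted p = 0.0518). Klf1 differed by 0.03 ± 0.04, and Tfrc by -0.12 ± 0.05. Without Meis1 deleted replicate 1 Tfrc fell by 0.14 (limma adjusted p = 0.0301).

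The genes whose profile over the 8 arrays was nearest to that of Atp6v0d2 were the chemokine gene Ccl2, the complement gene C1qc, the interferon-stimulated genes Usp18 and Ifi27l2a, and C1qa. Likeness was the root-mean-square distance between profiles, each less its own control mean, and it was 0.13 for Ccl2, 0.17 for C1qc, 0.21 for Usp18, 0.25 for Ifi27l2a and 0.32 for C1qa, among 11835 genes compared. For Atp6v0d1 the nearest were Apeh, Ogfod1, Rbms3, Zfand2a and Ppil3, at distances of 0.03 to 0.04. These neighbours of Atp6v0d1 differed between the groups by 0.13 to 0.20. Those of Atp6v0d2 differed by 4.30 to 4.97. Likeness thus mostly follows the size of the difference between the groups, and joint regulation was not tested.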

How the data were processed

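The authors deposited 1 log2 expression value per probe set and array, for which, per the labels, 100 ng of total RNA was turned into cRNA carrying biotin; the scale was judged from the values (2.65 to 13.2). The submitters' processing notes name MAS5 without its role, and the summarisation, the normalization and the array build were not given in the sources used here. Near-equal array medians (4.69 to 4.74) show values already normalized between arrays, so they were used as deposited.

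Of 45141 probe sets 104 were controls. The lowest 40% of the rest by mean were left out, limma 3.58.1 (lmFit and eBayes, R 4.3.3) was run on the 27022 kept, and p was adjusted over 11836 genes, each by its probe set with the highest mean. A second fit covered all 45037 probe sets. The procedure was tested on simulated data. For arrays, their number limits the precision. Python 3.11.15 drew the plots.

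The members and lists were chosen with earlier results of these data known. Named genes are all members, other subunits and Mitf and Tfe genes, the 3 smallest p of each list, and the 5 nearest profiles of Atp6v0d2 and Atp6v0d1. Clcn7, Ostm1, Mcoln1, Tmem175, Ccdc115, Vma21, Oxr1, Rogdi, Lamtor4, Atp5e and the markers were named after their values were seen. The printed promoter stretches and the cut-offs on repeated motifs were set after the matches were seen.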

Additional observations from a re-analysis of the deposited data

Results flagged for a closer look

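Among the probe sets of pump genes (37 probe sets in 2 groups of 4 arrays, so 74 groups), 6 had an array far from the other 3, and chance gives about 1 in 20 groups. Meis1 deleted replicate 1, the array with the raised 3' to 5' Gapdh difference, was that array in 3 of them: both Atp6v1a probe sets (11.06 against 10.87 to 10.89 for 1422508_PM_at, a gap of 0.902 of the range, and 10.22 against 10.76 to 10.84 for 1450634_PM_at, a gap of 0.877) and Atp6v1f (10.89 against 10.72 to 10.74, a gap of 0.872). It was high at the first Atp6v1a probe set and low at the second, and the part of RNA quality in this was not tested. The other 3 were Atp6v0a2 in Hoxa9 and Meis1 replicate 4 (6.54 against 6.91 to 6.94, gap 0.905), Atp6v0a4 in Meis1 deleted replicate 2 (3.96 against 3.84 in the others, gap 0.980, at the floor) and Atp6v0e in Meis1 deleted replicate 3 (11.61 against 11.68 to 11.69, gap 0.875).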

How the results depend on the processing

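Over 23 alternatives (offsets of 1 and 64, quantile normalization, 75th percentile scaling, no filter or 60% left out, the mean of probe sets, trend and robust eBayes, array weights, the replicate number or the bioB class as a block, within each class, each array left out, and 2 fits added after seeing the data: the spread taken from the gene-representing probe sets alone, and the bioB block without Meis1 deleted replicate 1) no member changed direction. Atp6v0a1, Atp6v0d2, Atp6v1a, Atp6v1b2, Atp6v1d and Atp6v1h passed in all 23, Atp6v0b in 22 and Atp6v0d1 in 10. One of the 23, within the high bioB class, has 1 deleted array, assumed to vary like the 2 control arrays, and its p adds little. In the 23, between 6 and 8 members rose and 0 fell. With the mean of probe sets the median was 0.43. Within the low and high bioB classes, where fewer arrays were tested, 1215 and 1166 genes rose and 899 and 992 fell, and 2 of the other subunits rose within the high class. With 1 array left out in turn 1759 to 2223 genes rose and 1650 to 2450 fell, and 7 to 8 members rose. Replicate numbers did not pair the arrays (correlations of deviations of -0.14 to 0.28); with the replicate block 8 members rose, with a median of 0.46, as did 2020 genes in all. Levels near the floor, as for Atp6v0d2 in control cells, limit the size of its difference.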
